A study of Mus musculus with 8 samples.

Results

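The sequences described here are 1100 DNA probes that could form a UV lesion at 1 place only, a TC or CC step whose cytosine belongs to a CpG. They were chosen by sequence alone from the 122095 different probes of an array of universal design. A dipyrimidine step is a pair of neighbouring pyrimidines on 1 strand. Each member held exactly 1 run of pyrimidines over both strands, the run was 2 bases long, it read TC or CC, and a guanine followed it on its own strand. No measured value entered this rule, but the members and classes were chosen with earlier results of these data known. Purines and pyrimidines therefore alternated everywhere else in a member, so the base 5′ of the step was always A or G, and the base after the CpG guanine was C in 498 members and T in 602. The step lay on the printed strand or on its complement.

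Each probe was 60 bases long, with 22 variable bases followed by a 3′ end of 38 bases that all members share. Probes were stained with 1 of 2 mouse antibodies and read as Alexa 488 intensity. An antibody against cyclobutane pyrimidine dimers (CPDs) at a dilution of 1:400 was applied to 2 UV-treated arrays and to 2 arrays without UV. An antibody against 6-4 photoproducts (6-4PPs) at 1:80 was applied to 2 UV-treated and 2 non-UV arrays, which makes 4 groups of 2. UV dose, second-strand synthesis, any methylation of the probes, and staining details beyond antibody, dilution and dye are stated neither in the labels nor in the files. The labels do not say that replicates were separate slides or irradiations, so p-values measure the spread between these arrays, which may be technical. The dilutions differ, so differences between the antibodies are differences between 2 stains and not between numbers of lesions.

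CPDs and 6-4PPs are the main lesions by which UV light joins neighbouring pyrimidines of 1 strand. The CPD joins the bases by a cyclobutane ring, whereas the 6-4PP links them by a single bond, bends the helix and forms readily at steps that end in cytosine. CpG steps matter for UV mutagenesis because mammalian cells often methylate their cytosine, and dipyrimidines within CpG are mutation hot spots in sun-exposed skin.

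The 1100 members fall into 8 classes, named here by the 4 bases from the 5′ neighbour to the CpG guanine, read on the strand of the step. ATCG was held by 147 members on the printed strand and by 153 on the complement, GTCG by 116 and 119, ACCG by 153 and 159, and GCCG by 126 and 127. To show what the probes look like, 1 member per class is printed, the one nearest to the class median of the UV minus non-UV difference averaged over both antibodies. With a single antibody such a member can lie away from its class median. The variable bases are given 5′ to 3′ on the printed strand, and capitals mark the step and the CpG guanine or, for the complement classes, the bases that pair with them.
ATCG printed: cgtatgcgcgcaTCGtatgtat
ATCG complement: cgtatgcaCGAtgcgtatgtat
GTCG printed: cgtatgcgcgcgTCGtatgtat
GTCG complement: tatgcatgcaCGAcgtatgtat
ACCG printed: tatgcaCCGcgcgcatatgtat
ACCG complement: tatgcatatataCGGtgcgcgc
GCCG printed: tatgcatgcgcgCCGtatgtat
GCCG complement: tatgcaCGGcgtgtgtatgtat
The printed ATCG and printed GTCG examples differ by 1 base, the purine 5′ of the step. Every member continues with the same end, shown because it holds no dipyrimidine step on either strand and so adds no place for a lesion.
Shared 3′ end: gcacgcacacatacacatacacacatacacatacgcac

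Steps began between positions 6 and 19 of the printed probe, 1092 of them between 6 and 14. The members occupied 1789 spots, since 1022 stood on 1 spot and 78 on more, up to 31. Most (1024) carried the plain names of the set that covers all 8-mers. Another 23 carried 8-mer or 9-mer names that add a length in bp, and 53 came from sets designed around Myc, E2F1, EGR1 or ETS1 sites. Values are log2 adjusted intensities relative to the median of the 550 probes without any dipyrimidine step, called step-free below. That median was an adjusted intensity of 1617 and 1603 on the CPD UV arrays, against 1219 and 1048 on the CPD non-UV arrays. It was 1954 and 1951 on the 6-4PP UV arrays, against 1497 and 1246 on the 6-4PP non-UV arrays. The median of all probes lay 1.21 and 1.08 log2 units above the step-free median on the CPD UV arrays and 1.76 on both 6-4PP UV arrays. It lay within 0.02 of it on all 4 non-UV arrays.

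Single spots were not independent between antibodies. Arrays with the same replicate number and the same UV condition deviated together over 175866 spots, with a correlation of the replicate 1 minus replicate 2 differences of 0.712 between the CPD and the 6-4PP UV arrays and 0.766 between the non-UV arrays (Pearson r across spots, which share their position and print). Between UV and non-UV arrays it was at most 0.00362. Over member spots alone the values were 0.849 and 0.756. Which step these pairs shared was not tested. The labels name no slide or scan. Among the 1100 members, 42 (3.82 percent) lay over 1 log2 unit from the step-free median on a non-UV array, as did 3.63 percent of all probes.

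The 2 antibodies gave very different pictures of the same probes. With the CPD antibody no class median lay more than 0.16 log2 units above step-free probes on a UV array. With the 6-4PP antibody ATCG stood out, at 2.81 times the step-free level on the printed strand and 1.78 times on the complement. GTCG, ACCG and GCCG lay between 1.03 and 1.14 times the step-free level with the 6-4PP antibody. A lone TC step in a CpG was thus well stained only where adenine preceded it, and lone CC steps in a CpG were hardly stained at all.

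ATCG on the printed strand was the most strongly stained class with the 6-4PP antibody. Its median adjusted intensity was 5494 and 5498 on the UV arrays, against 1550 and 1234 on the non-UV arrays. Relative to step-free probes this is 1.49 and 1.49 log2 units with UV, against 0.05 and -0.02 without. The UV minus non-UV difference was 1.47, and the groups did not overlap. The exact two-sided permutation test over arrays gave p = 0.333, the smallest value that 2 arrays against 2 allow, and the same p applies to every class level below unless another is given. The intensity above the step-free level averaged 3543 with UV and 20.2 without.

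Every member of this class lay above the step-free median with this antibody and UV, though by differing amounts. The mean over both 6-4PP UV arrays was 0.79 log2 units above step-free in the lowest member, 1.53 in the median member and 2.28 in the highest. All 147 exceeded the 97.5th percentile of step-free probes on both UV arrays, which 1 of the 550 step-free probes did. The 2 groups did not overlap, with UV above, on 145 of the 147 probes, against 91.1 percent of all probes and 17.8 percent of step-free probes. The order of members was partly the same on both UV arrays (Spearman rho 0.683 across 147 probes, which share most of their bases), while without UV rho was -0.019. This was not particular to the class. In the other classes the 6-4PP rho ran from 0.172 (complement GCCG) to 0.654 (complement ATCG) with UV, and from -0.050 to 0.122 without.

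ATCG on the complement strand was stained less. Its median was 3494 and 3458 on the 6-4PP UV arrays, against 1511 and 1233 on the non-UV arrays. The log2 levels were 0.84 and 0.83 with UV, against 0.01 and -0.02 without, and the groups did not overlap. Single members spanned 0.27 to 1.84 with UV, and 140 of 153 exceeded the step-free 97.5th percentile on both UV arrays.

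GTCG differs from ATCG only by guanine in place of adenine before the step, and its signal was small. The printed class had a median of 2197 and 2241 on the 6-4PP UV arrays, against 1501 and 1282 on the non-UV arrays, or 0.17 and 0.20 log2 units above step-free with UV against 0.00 and 0.04 without. On the complement strand it reached 0.06 on both UV arrays, against -0.01 and -0.03 on the non-UV arrays. Few members stood clear of step-free probes: 6 of 116 on the printed strand and 1 of 119 on the complement exceeded the 97.5th percentile on both arrays.

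Within each strand, CC steps in a CpG had lower 6-4PP medians than TC steps in a CpG with the same 5′ base. Printed ACCG lay at 0.14 and 0.15 log2 units with UV, against 0.03 and 0.02 without. Printed GCCG lay at 0.07 and 0.05 with UV, against 0.03 and 0.01 without. On the complement strand ACCG lay at 0.04 on both UV arrays and GCCG at 0.05 and 0.03. The 97.5th percentile of step-free probes was exceeded on both UV arrays by 2 of 153 and 2 of 159 ACCG members and by 1 of 126 and 1 of 127 GCCG members.

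With the CPD antibody the highest class was again printed ATCG, at a small part of its 6-4PP level. Its median was 1803 and 1753 on the CPD UV arrays, against 1240 and 1039 on the non-UV arrays. This corresponds to 0.16 and 0.13 log2 units above step-free with UV, against 0.02 and -0.01 without. ATCG on the complement lay at 0.07 and 0.05, and the other 6 classes at 0.06 or less on every UV array. The UV and non-UV arrays overlapped for printed GCCG and complement ACCG (exact permutation p = 0.667 each). Of the 147 printed ATCG members, 5 exceeded the step-free 97.5th percentile on both CPD UV arrays.

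Between the antibodies, on the UV arrays alone, the CPD level of printed ATCG was 1.35 log2 units below its 6-4PP level (-1.33 for replicate 1 and -1.37 for replicate 2). Complement ATCG was 0.77 lower (-0.77 and -0.78). Printed GTCG differed by -0.17 and -0.16 and printed ACCG by -0.09 on both replicates. The remaining 4 classes differed by 0.05 or less on average. No CPD UV array reached a 6-4PP UV array in these classes other than complement GCCG (exact permutation p = 0.333, and 0.667 for complement GCCG).

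Probe by probe, limma was fitted over all 122095 probes, with Benjamini-Hochberg adjustment and an adjusted p under 0.05 as threshold. With the CPD antibody 55 of the 1100 members rose with UV relative to step-free probes and 34 fell, or 5 and 3.09 percent, against 70.5 and 0.473 percent of all probes. Of the 550 step-free probes 15 rose (2.73 percent) and 12 fell. The rises included 21 of 147 printed ATCG members and 12 of 153 on the complement, or 11 percent of ATCG members, against 22 of the 800 members outside ATCG (2.75 percent). The number of rises was 25 without the CPD non-UV replicate 1 and 18 without replicate 2, and the number of falls was 19 without the CPD UV replicate 2.

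With the 6-4PP antibody 373 members rose and 33 fell, or 33.9 and 3 percent, against 86.0 and 0.203 percent of all probes. ATCG held 275 of the 373 rises and no fall: 142 of 147 printed members and 133 of 153 on the complement rose. Outside ATCG 98 of 800 rose (12.3 percent) and 33 fell, while 18 of 550 step-free probes rose and 23 fell. The rises outside ATCG were 28 of 116 in printed GTCG, 24 of 153 in printed ACCG and 8.18 to 9.24 percent in the other 4 classes. The number of falls was 57 without the 6-4PP non-UV replicate 1, 10 without the 6-4PP UV replicate 1, and 19 without the 6-4PP UV replicate 2 or either CPD non-UV array.

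The CPD effect minus the 6-4PP effect was higher in 4 members and lower in 246, against 10.6 and 36.9 percent of all probes. The lower ones, stained relatively more by the 6-4PP antibody, comprised 131 of 147 printed ATCG, 106 of 153 complement ATCG and 9 of the other 800 members. This contrast also took the arrays as independent. With a replicate block within each UV condition, added after the data were seen, 10 members were higher and 291 lower. Over all 122095 probes that fit called 17143 higher and 53490 lower. In the main fit 3 of the step-free probes were higher and 2 lower. The count of higher members was 33 without the 6-4PP non-UV replicate 1, 10 without its replicate 2 and 1 without the CPD non-UV replicate 2.

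These splits depend on the zero point. With each array centred on the median of all its probes, which lies above the step-free level after UV, 0 members rose and 1045 fell with the CPD antibody (39.5 and 40.2 percent of all probes), and 3 rose and 984 fell with the 6-4PP antibody (36.4 and 39.9 percent). The difference was then higher in 376 and lower in 90 (33.6 and 18.1 percent). With no centring 728 rose and 1 fell with CPD (92.0 and 0.00164 percent of all probes), and 849 rose and 0 fell with 6-4PP (96.0 and 0.00164 percent). Before centring, most members thus gained signal with UV, as the step-free median did, and nearly all gained less than the median probe.

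Members that differ by a single base were then paired, a comparison chosen after the data were seen. A pair takes every other base as identical, so flanks and position are matched. Pairs reuse members and are not replicates, and the values are medians over pairs on each array. For printed ATCG, adenine over guanine before the step was worth 0.17 and 0.12 log2 units on the CPD UV arrays and 1.38 and 1.29 on the 6-4PP UV arrays. With the 6-4PP antibody the ATCG probe was the brighter on both UV arrays in 112 of 112 pairs, against 27 of 112 on both non-UV arrays. Complement ATCG was 0.77 and 0.75 above its GTCG partner with 6-4PP, and brighter on both arrays in 106 of 112 pairs.

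Thymine over cytosine as the first base of the step was worth about as much as the adenine. Printed ATCG exceeded its ACCG partner by 0.12 and 0.09 log2 units with CPD and by 1.31 and 1.28 with 6-4PP, in 145 of 145 pairs on both 6-4PP UV arrays. On the complement strand the 6-4PP values were 0.81 and 0.73, in 137 of 148 pairs. Where guanine stood before the step, printed GTCG exceeded GCCG by 0.14 and 0.21 with 6-4PP, in 62 of 113 pairs, and the complement by 0.00 and 0.02. Adenine over guanine before a printed CC step was worth 0.11 and 0.13 with 6-4PP.

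Cytosine over thymine as the second base sets a member against a TT step in the same place. For printed ATCG against ATTG the CPD values were -2.56 and -2.47 log2 units, with the ATCG probe dimmer on both UV arrays in 143 of 144 pairs. The 6-4PP values were -0.79 and -0.85, with 141 of 144 pairs dimmer. On the complement strand the values were -1.24 and -1.18 with CPD, and -0.10 on both arrays with 6-4PP. In intensity above the step-free level, ATCG gave 1.97 ± 0.095 percent of the ATTG class with the CPD antibody and 47.6 ± 1.51 percent with 6-4PP on the printed strand (SD, n = 2 arrays). On the complement it gave 2.93 ± 0.38 percent with CPD and 85.2 ± 2.12 percent with 6-4PP.

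Printed GTCG was 1.25 and 1.14 log2 units below GTTG with CPD, dimmer on both arrays in 112 of 114 pairs. With the 6-4PP antibody the pair differed by 0.00 and -0.05, and the UV and non-UV arrays overlapped (exact permutation p = 0.667). Against CT steps, printed ACCG was 0.29 and 0.21 below ACTG with CPD and 0.29 and 0.27 below it with 6-4PP.

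The CpG guanine went with less 6-4PP signal than adenine in its place in printed ATCG, GTCG and ACCG and in complement ATCG. Printed ATCG was 0.14 and 0.13 log2 units below ATCA with CPD, and 0.45 and 0.49 below it with 6-4PP, dimmer on both 6-4PP UV arrays in 93 of 112 pairs. The complement pairs were 0.20 and 0.16 below with 6-4PP, in 68 of 113 pairs. For printed GTCG against GTCA the 6-4PP values were -0.11 and -0.09. For printed ACCG against ACCA they were -0.06 on both arrays, and for printed GCCG against GCCA -0.05 and -0.03. Unmatched, the median UV minus non-UV difference was 0.05 for printed GCCG and 0.03 for printed GCCA, so that class gave no clear direction. Complement GCCG lay 0.04 and 0.07 above GCCA with 6-4PP. On medians pooled over both 5′ bases, unmatched, the guanine minus adenine difference was -0.41 for printed TC steps and -0.04 for printed CC steps with 6-4PP. For TC steps such a pool mixes the unlike levels after adenine and after guanine, so its difference describes neither. The non-UV arrays gave -0.01 and 0.01 for the same differences, and the exact permutation test p = 0.333 each. On the complement strand the pooled 6-4PP differences were -0.20 for TC and -0.04 for CC steps, against -0.01 and -0.005 without UV. The class median of complement GTCG was 0.06 on both 6-4PP UV arrays, below 0.11 on both for complement GTCA.

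A family of printed probes shows these single changes together. Capitals mark the 4 bases from the 5′ neighbour to the base after the step. Such sets of 4 variants existed for 80 printed members and 80 complement members, and 1 per strand is shown.
ATCG member: tatgcacatATCGcgtatgtat
GTCG variant: tatgcacatGTCGcgtatgtat
ACCG variant: tatgcacatACCGcgtatgtat
ATCA variant: tatgcacatATCAcgtatgtat
ATTG variant: tatgcacatATTGcgtatgtat
On the CPD UV arrays the ATCG probe read 2070 and 2039, against 1291 and 1025 without UV. On the 6-4PP UV arrays it read 6082 and 5271, against 1505 and 941.1 without UV. Guanine before the step left 1910 and 2047 on the 6-4PP UV arrays, and cytosine as the first base 2157 and 2514. Relative to step-free probes the GTCG variant lay at -0.03 and 0.07 log2 units on these arrays, and the ACCG variant at 0.14 and 0.37. The ACCG variant also lay at 0.48 on 6-4PP non-UV replicate 2. On the CPD UV arrays it lay at 0.29 and 0.22, beside 0.36 and 0.35 for the ATCG probe. Adenine after the step gave 7563 and 7005 on the 6-4PP UV arrays (11 spots). The TT variant gave 9933 and 8657 with CPD and 9815 and 8536 with 6-4PP, so only this variant was bright with both antibodies.

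The complement family carries the same changes on the opposite strand, and capitals mark the printed bases that pair with the 4 bases.
ATCG member: cgtatgcaCGATgcgtatgtat
GTCG variant: cgtatgcaCGACgcgtatgtat
ACCG variant: cgtatgcaCGGTgcgtatgtat
ATCA variant: cgtatgcaTGATgcgtatgtat
ATTG variant: cgtatgcaCAATgcgtatgtat
Here the ATCG probe read 3532 and 3358 on the 6-4PP UV arrays, against 1541 and 1123 without UV. The GTCG variant read 2618 and 2423, against 1500 and 1503 without UV. The ACCG variant read 1427 and 1868, against 1643 and 1593 without UV. The ATCA variant read 4080 and 4884, against 1531 and 2112 without UV, so it was also the brighter of the pair on non-UV replicate 2. The TT variant read 3104 and 3516 with 6-4PP, overlapping the ATCG probe, but 3300 and 3521 with CPD, where the ATCG probe read 1611 and 1456.

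By class, printed and complement members differed most for ATCG with 6-4PP, at 1.49 on both UV arrays against 0.84 and 0.83. GTCG lay at 0.17 and 0.20 on the printed strand against 0.06 on both arrays. ACCG lay at 0.14 and 0.15 against 0.04 on both, close to GTCG. Pooled TCG members mix the levels of ATCG and GTCG, so the pooled median describes neither class. Over all TCG members the printed minus complement difference in class medians was 0.50 and 0.57 log2 units on the 6-4PP UV arrays, against 0.03 and 0.02 on the non-UV arrays. For CCG it was 0.06 and 0.08 with UV, against 0.02 and 0.03 without (exact permutation p = 0.333 each). With the CPD antibody the TCG difference was 0.05 and 0.06 with UV, against 0.02 and 0.00 without, and for CCG the UV and non-UV arrays overlapped.

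Within ATCG the next bases outward made smaller differences. With the 6-4PP antibody CATCGC averaged 1.61 log2 units above step-free on the UV arrays over 37 printed members, CATCGT 1.54 over 60, TATCGC 1.37 over 12 and TATCGT 1.27 over 38. The complement members kept this order, at 0.95, 0.86, 0.79 and 0.71. In 48 matched printed pairs thymine over cytosine before the adenine was worth -0.37 and -0.38, with the thymine probe dimmer on both UV arrays in 38. On the complement it was worth -0.15 and -0.24, with 30 of 48 dimmer. Thymine over cytosine after the CpG guanine was worth -0.19 and -0.17 on the printed strand. The next base outward on the 5′ side, adenine over guanine, was worth 0.01 and 0.14 on the UV arrays (exact permutation p = 0.667).

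Levels also differed by the position of the step in the probe. Printed ATCG members whose step began at position 7 lay at 1.40 and 1.44 log2 units on the 6-4PP UV arrays, and those at 13 lay at 1.54 and 1.56. Positions 9 and 11 fell between, at 1.48 on average each. Complement members at positions 8, 10, 12 and 14 averaged 0.71, 0.83, 0.98 and 0.89, a spread similar to that between the complement hexamers.

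Members designed around factor sites stood on 5 or more spots each, and their ATCG and GTCG levels can be set beside those of the 8-mer set. That set is taken here as all members with 8-mer names, with or without a length in bp. The E2F1 set holds 1 printed ATCG probe, at 1.55 and 1.51 log2 units on the 6-4PP UV arrays over 5 spots, beside 1.49 on both for the 144 probes of the 8-mer set. Complement ATCG probes averaged 1.01 in the E2F1 set (2 probes) and 0.98 in the EGR1 set (2 probes), beside 0.83 in the 8-mer set. The 2 printed GTCG probes of the Myc set lay at 0.22 and 0.19, beside 0.17 and 0.21 in the 8-mer set. On the 6-4PP non-UV arrays these 2 probes already lay at 0.15 on both, beside 0.00 and 0.04 in the 8-mer set. Much of their level was thus present without UV. Some CC classes differed more between sets: with 6-4PP, complement ACCG averaged 0.22 in the EGR1 set (2 probes) and 0.12 in the Myc set (8 probes), beside 0.02 in the 8-mer set. Complement GCCG averaged 0.28 with CPD and 0.26 with 6-4PP in the EGR1 set (2 probes), beside 0.04 with each antibody in the 8-mer set, and the EGR1 values were high on UV replicate 2 alone. Printed ACCG averaged 0.30 with 6-4PP in the Myc set (2 probes), beside 0.15. These Myc probes lay at 0.38 on UV replicate 1 and 0.22 on replicate 2, where their median spot SDs were 0.98 and 0.40. Over the 78 repeated members the median SD between spots of 1 array was 0.20 to 0.24 log2 units on the UV arrays and 0.10 to 0.21 on the non-UV arrays.

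The extreme single members were mostly spots bright on 1 array number. The member with the highest UV minus non-UV difference with both antibodies, and the lowest with each, are shown for this reason, with capitals as above.
Highest with both antibodies: cgtatgCGAcatatgtatgtat
Lowest with CPD: cgtatgcatatgCCGtatgtat
Lowest with 6-4PP: cgtatgcacgCCGtatatgtat
The first, a complement GTCG member, read 1416 and 67303 on the CPD UV arrays, against 1125 and 1080 on the CPD non-UV arrays. On the 6-4PP UV arrays it read 2064 and 64050, against 1301 and 1155 without UV. Both antibodies were thus bright on UV replicate 2 alone, and neither difference passed (limma, adjusted p = 0.292 for CPD and 0.252 for 6-4PP). The member lowest with CPD read 1574 and 1465 on the CPD UV arrays, against 1177 and 64117 on the non-UV arrays, where the 6-4PP antibody also read 33358 on replicate 2. The member lowest with 6-4PP read 1866 and 1741 on the 6-4PP UV arrays, against 1618 and 65562 without UV.

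Of the 6 members with the highest CPD difference none passed (limma, adjusted p from 0.0779 to 0.321), and the 6 with the highest 6-4PP difference included 2 that did. The first of these, chosen here as the highest member bright on both arrays, holds CATCGC.
Highest with 6-4PP on both arrays: tatgcacacaTCGcgtatgtat
It read 2191 and 2178 on the CPD UV arrays, against 1205 and 1035 without UV. On the 6-4PP UV arrays it read 8989 and 9556, against 1549 and 1324 without UV. The 6-4PP difference was 2.18 log2 units (SE 0.085, limma adjusted p = 8.77e-07) and the CPD difference 0.46 (adjusted p = 0.00229). The other of the 2, also a printed ATCG member, differed by 2.16 with 6-4PP (SE 0.13, limma adjusted p = 4.44e-06).

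The 3 members with the lowest CPD minus 6-4PP difference were all printed ATCG probes, and all 3 passed.
Lowest difference: tatgcacaTCGcgcgtatgtat
Second lowest: cgtatgcgtgcaTCGtatgtat
The first read 1349 and 1204 on the CPD UV arrays, against 1295 and 1035 without UV, so it lay below step-free probes with that antibody. On the 6-4PP UV arrays it read 6341 and 7091, against 1557 and 1068 without UV, and the difference was -2.23 (SE 0.19, limma adjusted p = 0.000228). The second read 1784 and 1543 with CPD and UV, against 1162 and 1166 without UV. With 6-4PP it read 7225 and 6336 with UV, against 1424 and 1086 without, a difference of -1.93 between the antibodies (SE 0.19, adjusted p = 0.000358). The third is the printed ATCG example given first, which read 1597 and 1505 with CPD and UV, against 1169 and 1234 without UV. With 6-4PP it read 6797 and 7169 with UV, against 1278 and 1712 without (difference -1.86, SE 0.32, adjusted p = 0.00334). The 3 with the highest difference did not pass (limma, adjusted p from 0.325 to 0.639).

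Of the other class examples, the complement ATCG example also opens the complement family. With the 6-4PP antibody it rose by 0.87 log2 units with UV (SE 0.11, limma adjusted p = 0.000221). With CPD its difference was -0.01 (limma adjusted p = 0.937). The 6 examples of GTCG, ACCG and GCCG read between 1777 and 2239 on the 6-4PP UV arrays, against 994.4 to 1535 on the non-UV arrays. Their differences with 6-4PP lay between -0.02 and 0.20 log2 units and none passed (limma, adjusted p from 0.143 to 0.869). With CPD their differences lay between -0.15 and 0.06 and none passed (limma, adjusted p from 0.301 to 0.990).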

How the data were processed

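Each of the 8 arrays was deposited as a table of spots with Alexa 488 intensities on a linear scale. Per the file headers, the authors gave a scanner intensity, a normalised intensity and an adjusted intensity. In the deposited files the normalised intensity equals the scanner intensity, because the Cy3 columns hold only 1, and the adjusted intensity is the normalised one over a local median, scaled by 1 factor per array. No background was subtracted, so folds understate differences in staining. The scanner ceiling is 65535, and 89 to 288 spots per array reached it. Aligners or genome builds do not apply to designed probes, and no source used here names the scanning software.

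The adjusted intensity was averaged on the log2 scale over the spots of a probe and centred per array on the median of the 550 step-free probes. limma 3.58.1 (R 4.3.3) fitted 4 group means over 8 arrays and 122095 probes, with eBayes and Benjamini-Hochberg adjustment. Class medians were compared between arrays by the exact permutation test. Calculations used Python 3.11.15, numpy 2.4.6, pandas 2.3.3 and scipy 1.17.1, and the fit was tested on simulated data. A class needed at least 10 probes. Precision is limited by the number of arrays.

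Named members were those with the 6 highest and 3 lowest UV differences per antibody, the 3 highest and 3 lowest differences between antibodies, and, per class, the member closest to the class median of the UV difference averaged over both antibodies. The members, classes and lists were chosen with earlier results of these data known. Same-numbered arrays of the 2 antibodies within 1 UV condition shared spot deviations, whereas UV and non-UV arrays did not, so the replicate number does not pair the UV comparison. Alternatives were the centring, quantile normalization, the unadjusted column, a log offset, a subtracted background, dim, saturated or repeated spots, means, a linear scale, positions, eBayes settings, 1 antibody alone, replicate blocks and each array left out.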

Additional observations from a re-analysis of the deposited data

Results flagged for a closer look

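The CPD and 6-4PP effects of UV differed in part of the 1100 members by the interaction contrast of limma (Benjamini-Hochberg adjusted p under 0.05). The CPD effect minus the 6-4PP effect was lower in 246 and higher in 4, against 36.9 and 10.6 percent of all probes. That fit took the arrays as independent. No group had 4 or more arrays, so single arrays were not screened for distance from their group.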

How the results depend on the processing

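Of 516 class values under alternatives 510 kept their direction and 6 reversed, all 6 near 0 in the main setting. Printed ATCG lay between 1.43 and 1.51 log2 units with 6-4PP and between 0.12 and 0.16 with CPD (UV minus non-UV) over 12 log2-scale alternatives, and complement ATCG between 0.79 and 0.87 and between 0.05 and 0.11. Reversed were adenine minus guanine before complement CC steps with 6-4PP (0.022 as a mean, 0.0069 unadjusted), printed minus complement CCG with CPD (-0.012 as a mean), and complement ACCG with CPD (-0.0075 on single spots, -0.0017 to 0.0068 with 1 array left out). The causes of changed values below were not tested, except where the setting drops probes.

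Of 126 counts 43 moved by over 1.5 times. Members higher and lower numbered 0 and 1045 (CPD), 3 and 984 (6-4PP), 376 and 90 (difference) centred on all probes; 728 and 1, 849 and 0, and 0 higher (difference) without centring; 0 and 81, 0 and 81, 0 and 0 after quantile normalization, which forces the arrays to 1 distribution. Without the dimmest 25 percent, 136 members stayed, with 24 and 1 (CPD), 98 and 0 (6-4PP), 0 and 87 (difference). Of the 91571 probes kept, 77613 and 46 (CPD), 86578 and 11 (6-4PP), and 11443 and 36277 (difference) passed. The filter used the mean of each probe over all 8 arrays, UV arrays included, so probes bright with UV stayed more easily. These counts are therefore partly set by the filter. Unadjusted intensities gave 20 and 2 (CPD), 18 lower (6-4PP) and 2 higher (difference); a subtracted background gave 57 lower (CPD) and 7 higher (difference); eBayes trend gave 7 higher (difference); 1 antibody alone gave 8 lower (6-4PP). With 1 array left out, CPD counts were 18 to 66 higher and 19 to 49 lower, 6-4PP 10 to 57 lower, and the difference 1 to 33 higher. The replicate block over all arrays gave 65 and 39 (CPD), 390 and 36 (6-4PP), 5 and 249 (difference). The replicate block within condition, added after the data were seen, gave 10 and 291, against 17143 and 53490 of all 122095 probes. Without probes bright or dim on a non-UV array, also added later, counts were 60 and 39, 386 and 30, and 4 and 255. A slide or scan block was not run, since no slide is named, and only 8 steps lie beyond position 14, too few for a class.

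Of 652 values of named members 31 reversed. Centred on all probes, 6-4PP differences were -0.89 (cgtatgcaCGAtgcgtatgtat), -0.042 (cgtatgcgcgcaTCGtatgtat), -1.59 (cgtatgcgcgcgTCGtatgtat), -1.68 (tatgcaCCGcgcgcatatgtat), -1.62 (tatgcatatataCGGtgcgcgc), -1.56 (tatgcatgcaCGAcgtatgtat) and -1.73 (tatgcatgcgcgCCGtatgtat). After quantile normalization they were -0.32, -0.031, -0.19, -0.91, -0.85, -0.34 and -0.71 in that order, with -0.22 for cgtatgcacaTCGcatatgtat and -0.0051 for tatgcacacaTCGcgtatgtat. Without centring tatgcaCGGcgtgtgtatgtat had 0.49. Unadjusted, tatgcaCCGcgcgcatatgtat had -0.028 and tatgcatatataCGGtgcgcgc -0.13. Without saturated spots CPD values were -0.15 (cgtatgCGAcatatgtatgtat) and -0.020 (tatgcatatatgCCGtatgtat), and the difference -1.21 (cgtatgcacgCCGtatatgtat). With 1 array left out, members bright on 1 array ran from -0.16 to 5.43 (cgtatgCGAcatatgtatgtat, CPD), -0.021 to 5.27 (tatgcatatatgCCGtatgtat, CPD), -0.11 to 4.57 (cgtatgcgcgCCGtatatgtat, CPD), -1.21 to 4.39 (cgtatgcacgCCGtatatgtat, difference), and -5.36 to 0.23 (6-4PP) and -0.97 to 4.62 (difference) for tatgcacatatgTCGtatgtat. The GCCG examples, near 0, ran from -0.15 to 0.11 (tatgcaCGGcgtgtgtatgtat) and -0.046 to 0.12 (tatgcatgcgcgCCGtatgtat) with 6-4PP.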
